A study of Hevea brasiliensis with 6 samples.

Results

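In leaves of the rubber tree (Hevea brasiliensis), 60 of 167072 unigenes were selected because their level was high after 1 h at 4 °C and had come down again by 24 h, in both clones studied. A unigene is a transcript sequence assembled from the reads. The selection was made on a median-centred log2 level: 0.5 fragments were added to the count, the sum was divided by the library total, and the library's median was subtracted, taken over the 90162 unigenes whose mean count was 10 fragments or more. Unigenes qualified with a mean count of 30 or more fragments over the 6 libraries (48176 unigenes) and a 24 h level less than 1 log2 unit above control in each clone (40217 of these). The 60 with the highest smallest value among 4 differences were taken, namely 1 h minus control and 1 h minus 24 h in each clone. These 4 differences and the 24 h change were therefore fixed or bounded by the choice, and their values below describe the members without testing anything.

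The clones were ‘Reken501’, which is cold-sensitive, and ‘93-114’, a cold-resistant hybrid selection. Leaves of 1-year-old plants with a pair of extension units were taken without cold (control), after 1 h and after 24 h at 4 °C. Each of the 6 groups is 1 library from 1 pool of leaves of 3 plants, so no difference has a replicate check and no p-value is given. Library totals were between 20.4 M and 21.9 M fragments. In ‘93-114’ the median over unigenes, relative to the total, was 0.71 log2 units below control at 1 h and 0.65 below at 24 h, against 0.10 and 0.07 in ‘Reken501’, and all differences below are relative to these medians unless totals are named.

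Plants respond to chilling in waves. Membrane and calcium signals come first, and transcripts for regulators, such as the C-repeat binding factors known from Arabidopsis, accumulate early and mostly decline before the slower changes in lipid, sugar and protective protein genes are complete. A transcript that is high early and low later is thus a familiar shape in cold responses. Which genes the 60 unigenes belong to is not known here. The tables give IDs only, and 0 of the IDs occur in the RefSeq table of 50196 rubber tree genes, so no gene name, role, genome position or sequence is given, and leaf marker genes could not be looked up.

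On the centred scale the members had a peak of the same median height in both clones, whereas relative to library totals the peak in ‘93-114’ was lower. The centred median change at 1 h was 1.33 log2 units in ‘Reken501’, with quartiles of 1.02 and 1.61, and 1.33 in ‘93-114’, with quartiles of 1.03 and 1.63. The medians over all 48176 unigenes with the minimum mean were 0.02 and 0.05. At 24 h the median member lay 0.09 log2 units below control in ‘Reken501’ and 0.01 above it in ‘93-114’. From 1 h to 24 h the median member came down by 1.46 and 1.31 log2 units in the same order. Relative to totals the median change at 1 h was 1.23 log2 units in ‘Reken501’ and 0.62 in ‘93-114’, and at 24 h it was -0.16 and -0.64. The equal height in both clones therefore depends on the scaling, and the choice, made on the centred scale, held both clones to the same smallest value.

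**Figure D1:**
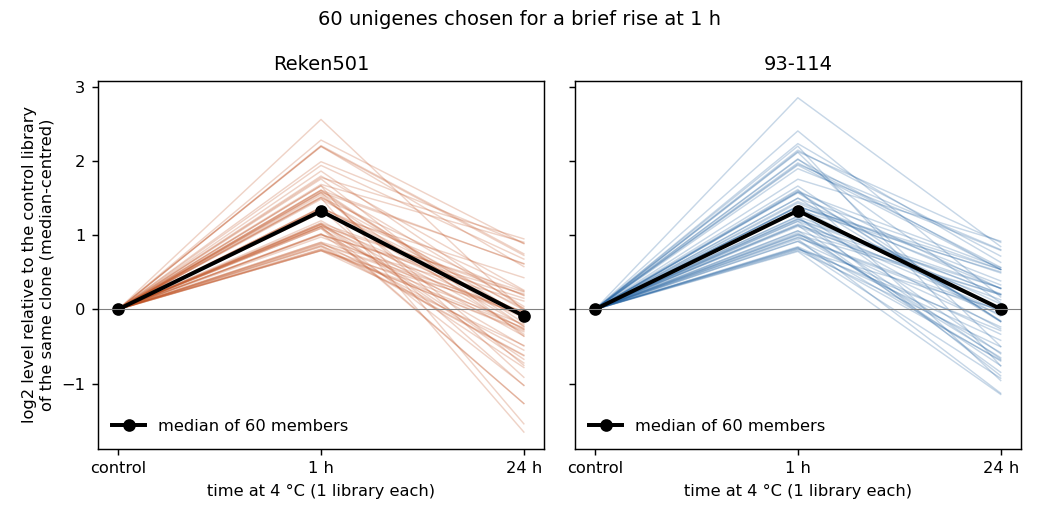
Median-centred log2 level of the 60 members (thin lines) and their median (black) relative to the control library of the same clone, at control, 1 h and 24 h of cold, with 1 library per point and the times spaced evenly rather than to scale. The medians peak at 1.33 in both clones at 1 h and lie at -0.09 in ‘Reken501’ and 0.01 in ‘93-114’ at 24 h, and the 24 h values fan out on both sides of control.

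A difference of at least 1 log2 unit (2-fold) at 1 h against control was seen in 47 members in ‘Reken501’ and in 47 in ‘93-114’, with 38 members past it in both. Over all unigenes with the minimum mean, 5.55% were this far above control in ‘Reken501’, 12.5% in ‘93-114’ and 1.3% in both. From 1 h down to 24 h, 47 members in ‘Reken501’ (6.8% of all) and 48 in ‘93-114’ (6.91%) differed by as much. Since the members were chosen on these differences, their counts only describe the choice. In ‘93-114’ the fold rests heavily on the median-centring: relative to the library totals, 14 members were at least 2-fold higher at 1 h in ‘93-114’ (4.4% of all) and 41 in ‘Reken501’ (4.48%). The raw count was higher at 1 h than at control, and higher at 1 h than at 24 h, in all 60 members in both clones. Each of the differences used in the choice was larger than the shift of any library median, so this too follows from the choice.

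All 4 differences reached 1 log2 unit in 22 members. Of these, 3 had a mean under 10 fragments in 1 clone, which leaves 19. Without the limit on the 24 h level, 28 of 48176 unigenes (0.0581%) met this. Relative to totals 8 members reached it, and the share of all unigenes on that scale was not counted. The smallest of the 4 differences was 2.12 for the first-ranked member and had a median of 0.92. At the edge of the list the order was decided by small margins, with 0.78 for both CL576.Contig4_All and CL9595.Contig3_All just inside and 0.78 for both CL2886.Contig2_All and Unigene30167_All just outside.

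Across unigenes the 1 h changes of the clones were weakly related. Of the 2676 unigenes at least 2-fold higher at 1 h in ‘Reken501’, 23.4% were so in ‘93-114’, where 12.5% of all were. Of the 6004 in ‘93-114’, 10.4% were so in ‘Reken501’, where 5.55% of all were. Spearman's rho between the 1 h changes of the clones was 0.076 across the 48176 unigenes, which are not independent replicates. The plot of the 1 h changes of both clones shows the members in the sparse upper right of this cloud.

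**Figure D2:**
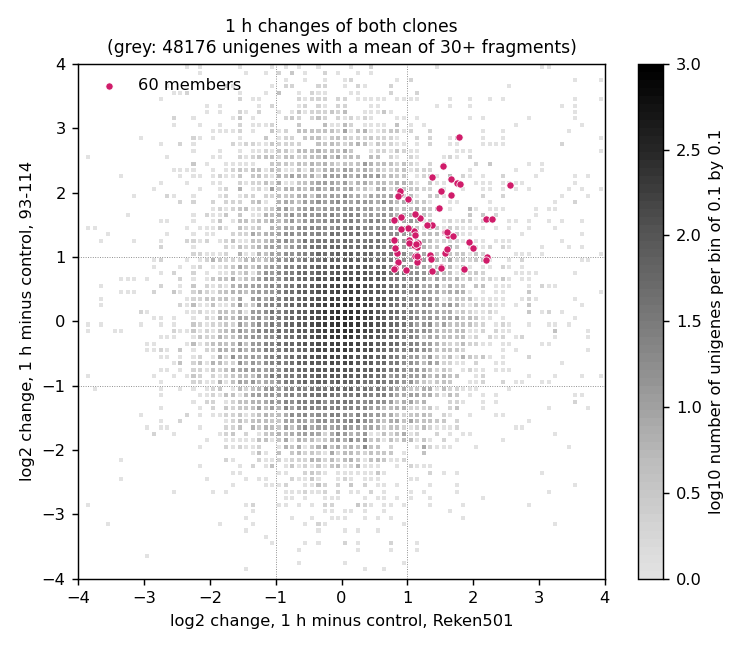
Log2 change from control to 1 h in ‘Reken501’ (x axis) and ‘93-114’ (y axis), both median-centred and drawn from -4 to 4, with the 48176 unigenes that have the minimum mean binned in grey and the 60 members in magenta. Dotted lines mark 2-fold, and 38 members lie above both while 1.3% of all these unigenes do.

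CL13138.Contig2_All, 1334 bases long, was ranked first. Its FPKM (a level per length: fragments for every kilobase of the unigene and every M fragments in the library) at control, 1 h and 24 h stood at 1.70, 9.45 and 1.60 for ‘Reken501’, and at 6.37, 16.9 and 2.87 for ‘93-114’. The same order is kept for all values below. The 1 h library was the highest of its clone by a wide margin, and the level in ‘93-114’ was above that in ‘Reken501’ at each time. On the centred scale the 1 h level was 5.91-fold control in ‘Reken501’ (95% counting interval 2.13 to 3.05 in log2) and 4.34-fold in ‘93-114’ (1.87 to 2.38). These intervals and those below are exact conditional intervals of the 2 counts, and they cover counting error only, not the spread between plants or pools.

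Several of the next-ranked members rested on far fewer fragments. CL7286.Contig3_All (810 bases) had 16, 45 and 9 fragments in ‘Reken501’ and 26, 89 and 20 in ‘93-114’, so its 2.92-fold and 5.31-fold higher levels at 1 h rest on small counts. Unigene55650_All (248 bases) had 40, 108 and 12 fragments in ‘Reken501’ and 7, 19 and 5 in ‘93-114’. Its 24 h count in ‘Reken501’ was far under control, at -1.65 log2 units, the lowest 24 h change of any member in that clone. Unigene9445_All (267 bases) had an FPKM of 3.53, 11.4 and 2.60 in ‘Reken501’ and 4.05, 11.1 and 4.27 in ‘93-114’. Its levels were close at control and 1 h, and at 24 h the centred level was 2.14-fold higher in ‘93-114’ (0.14 to 2.15 in log2).

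The next members in rank differed in which clone had more. Unigene43040_All (866 bases) had an FPKM of 0.871, 2.48 and 0.428 in ‘Reken501’ and 2.21, 3.53 and 1.32 in ‘93-114’, higher in ‘93-114’ at each time. Unigene33087_All (286 bases) was the reverse, with 9.23, 22.5 and 8.90 in ‘Reken501’ and 2.40, 7.08 and 2.39 in ‘93-114’. Its FPKM at 24 h was close to control in both clones, which after centring is 0.02 log2 units above control in ‘Reken501’ and 0.64 in ‘93-114’. Unigene1622_All (725 bases) had 34, 99 and 29 fragments in ‘Reken501’ and 16, 26 and 7 in ‘93-114’, so its peak in ‘93-114’ rests on 26 fragments.

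Unigene25404_All (1045 bases) peaked mainly in ‘Reken501’, with 111, 404 and 173 fragments there and 30, 45 and 17 in ‘93-114’. Its 1 h level was 3.84-fold control in ‘Reken501’ and 2.34-fold in ‘93-114’, of which a large part is the centring, since relative to totals the log2 change in ‘93-114’ was 0.52. Unigene43610_All (719 bases) had 1.57, 5.19 and 1.80 FPKM in ‘Reken501’ and 2.80, 7.53 and 3.36 in ‘93-114’. Unigene53760_All (1048 bases) had 2.07, 4.45 and 1.63 FPKM in ‘Reken501’ and 1.69, 3.14 and 1.31 in ‘93-114’. Unigene43610_All was higher in ‘93-114’ on the centred scale, by 1.96-fold at 1 h (0.55 to 1.40 in log2) and 2.44-fold at 24 h (0.61 to 2.02), while the counting intervals of Unigene53760_All between the clones spanned 0 at each time.

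**Figure D3:**
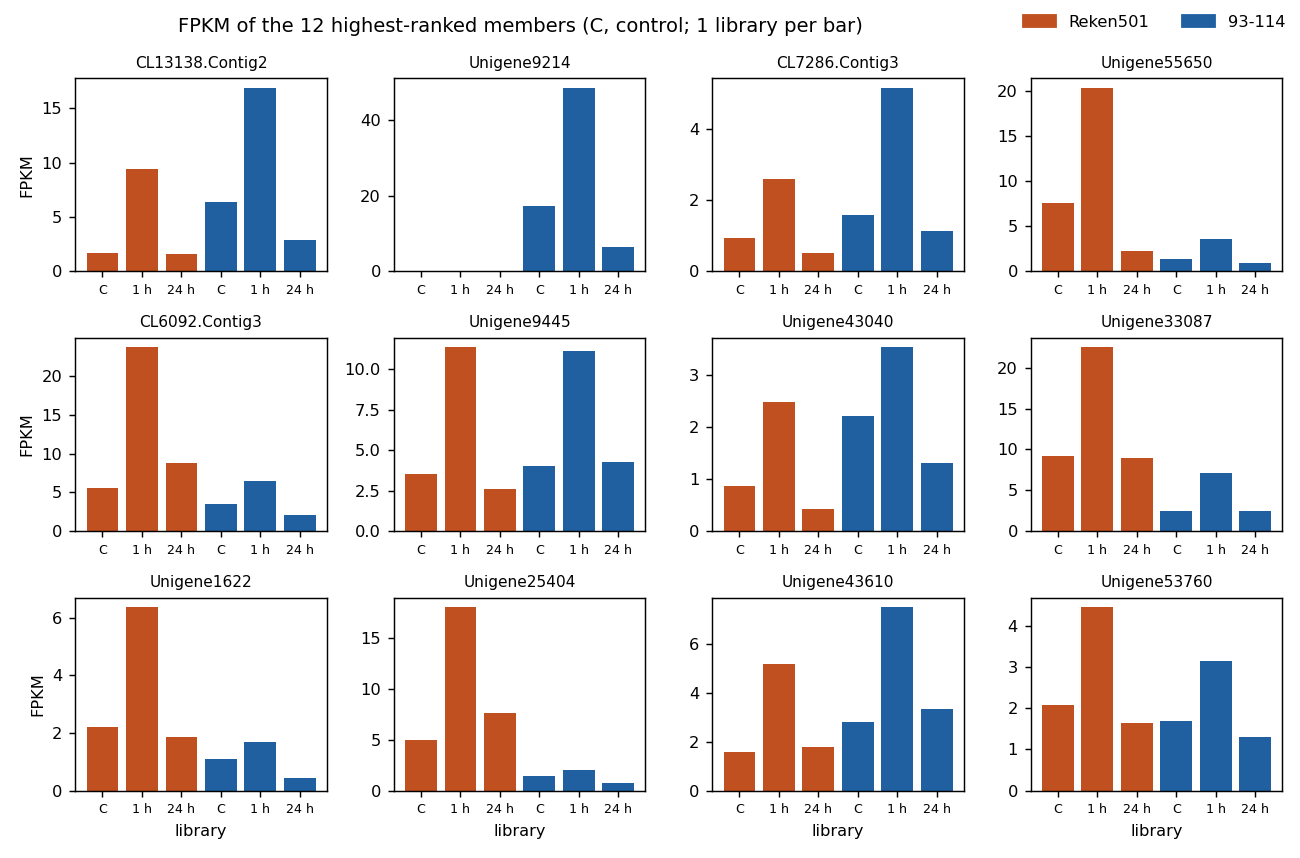
Deposited FPKM in each library for the 12 members with the highest smallest difference, ‘Reken501’ in orange and ‘93-114’ in blue, each panel with its own axis from 0 and 1 library per bar. The 1 h bar is the highest of its clone in every panel, except that Unigene9214_All is near 0 in all 3 ‘Reken501’ libraries.

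A few members were nearly unread in 1 clone, so their peak there has almost no evidence. Unigene9214_All (1186 bases), ranked second, had 0, 1 and 0 fragments in ‘Reken501’ and 417, 1223 and 169 in ‘93-114’. Its place in the list comes from the 0.5 fragments added in ‘Reken501’, where its counts are at or under the limit of 3 fragments that a count of 0 allows and no fold is given. In ‘93-114’ its 1 h level was 4.61-fold control (2.04 to 2.37 in log2) and 7.81-fold the 24 h level, and at control it was at least 128.2-fold higher in ‘93-114’ than in ‘Reken501’.

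Unigene29579_All (1408 bases) had 1, 4 and 0 fragments in ‘Reken501’ and 68, 169 and 82 in ‘93-114’. The ratio of 4 fragments to 1 in ‘Reken501’ has a counting interval of -1.25 to 7.71 in log2, so a peak was not detectable there at this depth. CL13376.Contig1_All (626 bases) was the mirror image, with 64, 184 and 53 fragments in ‘Reken501’ and 1, 2 and 1 in ‘93-114’, where the interval of the 1 h ratio was -2.61 to 7.54. With CL8431.Contig2_All and Unigene58750_All, 5 members had a mean under 10 fragments in 1 clone. Without these 5, the median change at 1 h was 1.17 log2 units in ‘Reken501’ and 1.26 in ‘93-114’.

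The most abundant members by length were short. CL4634.Contig3_All, 154 bases long, had an FPKM of 41.0, 114 and 36.7 in ‘Reken501’ and 14.4, 18.3 and 5.33 in ‘93-114’. Unigene58750_All, 158 bases long, had 25.4, 61.4 and 27.5 in ‘Reken501’ and 2.18, 3.87 and 2.02 in ‘93-114’, where the last set rests on 7, 13 and 7 fragments. CL576.Contig4_All (2567 bases) had the most fragments of any member, with 1124, 2754 and 1040 in ‘Reken501’ and 445, 487 and 138 in ‘93-114’. In ‘Reken501’ it was 2.60-fold control at 1 h with a narrow counting interval (1.28 to 1.48 in log2), whereas in ‘93-114’ the count was about level from control to 1 h and low at 24 h, 1.15 log2 units below control.

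Together the 60 members made up a small part of each library. Per M fragments of the library they had 232, 571 and 223 in ‘Reken501’ and 286, 431 and 153 in ‘93-114’. Without CL576.Contig4_All these sums were 179, 443 and 175, and 264, 408 and 147. Set against the totals, the sum was therefore higher at 1 h in both clones, more so in ‘Reken501’, and in ‘93-114’ at 24 h it was below control, as the median over unigenes was.

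Members were thinly read, which sets the precision of each value. The mean count was under 100 fragments in 42 members, from 100 to 300 in 14 and at least 300 in 4, and 48 had at least 10 fragments in every library. The counting interval of a member's 1 h change against control reached a median of 0.55 log2 units to either side in ‘Reken501’ and 0.59 in ‘93-114’, and up to 4.48 and 5.07 where no count was 0. Choosing the highest of many thinly read values favours values that counting error has raised, and the differences 1 h minus control and 1 h minus 24 h of a clone share the 1 h library, so a repeat may give smaller peaks. No second set of libraries was analysed here.

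Which clone had the larger peak depended on the scaling. On the centred scale it was larger in ‘Reken501’ in 25 and larger in ‘93-114’ in 35, with a median difference of 0.07 log2 units toward ‘93-114’, against 0.04 over all unigenes with the minimum mean. Relative to totals it was larger in ‘Reken501’ in 51 and in ‘93-114’ in 9, with a median difference of -0.55 log2 units, against -0.58 over all. On both scales the median difference of the members was thus near that over all unigenes. The shares of all unigenes on each side, and at least 1 log2 unit apart, were not counted. In 3 members the centred 1 h change was larger in ‘Reken501’ by at least 1 log2 unit, namely CL6092.Contig5_All, CL6092.Contig8_All and Unigene7900_All. In 4 it was larger in ‘93-114’ by as much, namely CL7983.Contig2_All, CL13157.Contig5_All, Unigene38267_All and Unigene49364_All, and these 7 are named because they passed that difference, after their values were seen. Unigene49364_All had the largest 1 h change in ‘93-114’, with 58, 269 and 72 fragments against 12, 40 and 23 in ‘Reken501’, a change of 2.86 against 1.78 log2 units.

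At 24 h the members did not all come back to the same place. Both clones were within 0.5 log2 units of control in 17 members, against 30% of all unigenes with the minimum mean. Both were below control in 22 members (35.5% of all) and both above in 14 (27.7%), and the clones lay on opposite sides in the remaining 24. These numbers are near the shares over all unigenes with the minimum mean, so they do not set the members apart. The 24 h level was at least 2-fold below control in 6 members in ‘Reken501’ (9.39% of all) and in 2 in ‘93-114’ (10.9%), and the upper side was capped by the choice. Relative to totals these were 6 (10.9%) and 17 (34.4%), and 54 of the 60 members were below control at 24 h in ‘93-114’. There the median over unigenes had itself shifted by -0.65 log2 units from control, and the share of all unigenes below control was not counted. The part of the 1 h change that was gone by 24 h had a median of 109% in ‘Reken501’ and 99.6% in ‘93-114’, and the lowest values were 46.2% and 47.6%. Relative to totals the medians were 117% and 194%.

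The level of a member in 1 clone relative to the other was not used in the choice. In control leaves the median difference, ‘93-114’ minus ‘Reken501’, was -0.12 log2 units over the members and -0.13 over all unigenes with the minimum mean. At 1 h it was 0.16 against -0.11, and at 24 h 0.12 against -0.10. The members thus had no common lean toward a clone in control leaves, and the later medians were small beside a spread whose quartiles were -1.44 and 0.99 at 1 h. With library totals the medians were 0.06, -0.28 and -0.29 at control, 1 h and 24 h, so the sign of each depended on the scaling.

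Large differences between the clones were frequent among the members in both directions. At least 2-fold apart were 30 of the 60 members at control, 33 at 1 h and 36 at 24 h, against 31.5%, 37.5% and 31.4% of all unigenes with the minimum mean. At control 14 of these were higher in ‘93-114’ (14.2% of all) and 16 lower (17.2%). At 1 h 15 were higher (18.6%) and 18 lower (18.9%), and at 24 h 18 were higher (15.4%) and 18 lower (16%). Without the 5 members with few fragments in 1 clone, 25, 28 and 31 were at least 2-fold apart. The members were read less than the background, with a median mean count of 58.3 fragments against 79.7, and the part of count size in these shares was not tested.

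The differences between the clones mostly lasted through the cold. In 25 members ‘93-114’ was higher at all 3 times, in 23 it was lower at all 3, and in 12 the sign turned, so that 48 kept 1 sign against 60.9% of all unigenes with the minimum mean. The choice may favour a kept clone difference, since it asked for a 1 h peak in both clones and capped both at 24 h. Members were also more often at least 2-fold apart. The part of either in this count was not tested. The centred 1 h change of ‘93-114’ minus that of ‘Reken501’ had quartiles of -0.33 and 0.42 over the members, against -0.53 and 0.65 over all. At least 2-fold higher in ‘93-114’ at all 3 times were 11 members (7.74% of all), and at least 2-fold lower were 13 (7.75%). Unigene9214_All and Unigene29579_All had the largest differences toward ‘93-114’ in control leaves, and CL13376.Contig1_All and Unigene58750_All the largest toward ‘Reken501’. All 4 had few fragments in the other clone.

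**Figure D4:**
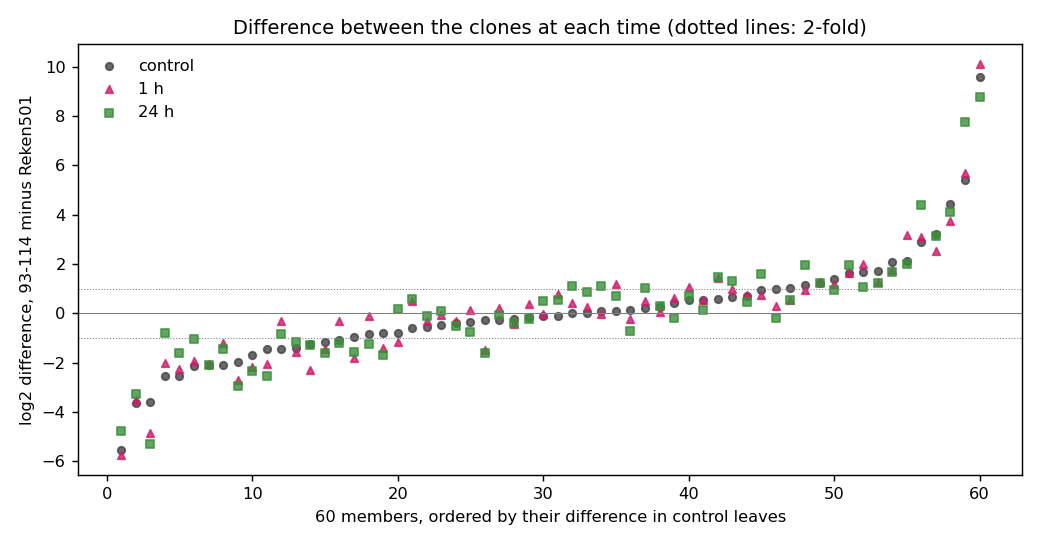
Log2 difference ‘93-114’ minus ‘Reken501’ (y axis, median-centred) at control, 1 h and 24 h for each of the 60 members, ordered on the x axis by the control value, with dotted lines at 2-fold and 1 library per clone and time. The points of a member mostly lie on the same side of 0 at all times, as in 48 of 60.

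In form, the members were shorter than other unigenes and more often stood alone. Their median length was 796 bases against 1217, with 11 under 300 bases (4.74% of all unigenes with the minimum mean) and 20 of at least 1000 bases (59.6%). At the same fragment minimum, 24 were contigs of a cluster, that is, of a group of similar assembled sequences, against 60.7% of all, and 36 stood alone. Lengths ran from 154 to 3391 bases, and 5 members were at least 3000 bases long (9.72% of all). The part of length and count in the choice was not tested.

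The 24 contigs among the members came from 20 clusters, and 2 clusters, CL6092 and CL15635, held 3 members each. Contigs of 1 cluster are not independent, since fragments of similar sequences can be divided between them, and 4 of the sister contigs even had counts equal to another's in all 6 libraries. The sister contigs are the other contigs of these clusters with a mean of at least 30 fragments. There were 93, in 19 of the clusters, and the choice ranked them too but passed over them by their rank or their 24 h level, so their values are not independent of it.

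In CL6092 a 1 h peak was shared by several contigs, and it was far larger in ‘Reken501’. Its member CL6092.Contig3_All (862 bases) had 101, 439 and 163 fragments in ‘Reken501’ and 62, 119 and 38 in ‘93-114’. CL6092.Contig5_All (3035 bases) had 195, 847 and 283 in ‘Reken501’ and 17, 21 and 5 in ‘93-114’, and CL6092.Contig8_All (3135 bases) had 20, 89 and 33 and then 18, 23 and 8. The 3 members were 4.59-fold, 4.59-fold and 4.63-fold above control at 1 h in ‘Reken501’, nearly the same fold, while in ‘93-114’ the counting intervals of the change were wide, at 1.14 to 2.06, -0.04 to 1.97 and 0.05 to 1.98 in log2.

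The 3 sister contigs of CL6092 were above control at 1 h as well, except that CL6092.Contig6_All was below control in ‘93-114’ relative to totals. CL6092.Contig7_All (4400 bases) had 236, 2405 and 1113 fragments in ‘Reken501’ and 167, 232 and 120 in ‘93-114’, a change at 1 h of 3.43 and 1.13 log2 units. It was left out of the members only by its 24 h level in ‘Reken501’, which was still 2.28 log2 units above control. CL6092.Contig6_All had 717, 1939 and 1040 fragments and then 462, 339 and 196, and CL6092.Contig1_All had 52, 108 and 21 and then 11, 12 and 3. Summed over its 8 contigs, CL6092 had 1381, 5938 and 2695 fragments in ‘Reken501’, a clear peak at 1 h that had not gone by 24 h, and 753, 772 and 371 in ‘93-114’, where the raw count was level at 1 h.

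In CL15635 the centred peak of the summed cluster was smaller and of like size in both clones. CL15635.Contig4_All (912 bases) had 84, 178 and 51 fragments in ‘Reken501’ and 176, 220 and 119 in ‘93-114’. CL15635.Contig6_All (1119 bases) had 98, 264 and 113 and then 211, 239 and 76, and CL15635.Contig9_All (1907 bases) had 194, 318 and 155 and then 493, 553 and 278. The 1 h count was the highest of its clone in each case, by less in ‘93-114’ than in ‘Reken501’. Summed over its 14 contigs the cluster was 0.82 log2 units above control at 1 h in ‘Reken501’ and 0.81 in ‘93-114’, and 0.95 and 0.94 above the 24 h level. Relative to totals the sums were 0.72 and 0.10 above control. CL15635.Contig14_All had 0 fragments in all 3 ‘Reken501’ libraries and 142, 249 and 147 in ‘93-114’, so this cluster also holds a sequence read only in ‘93-114’.

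Other members moved apart from their cluster. CL13566.Contig3_All (619 bases), named after its values were seen, had 175, 297 and 110 fragments in ‘Reken501’ and 194, 257 and 153 in ‘93-114’. All 6 of its sister contigs were below control at 1 h in both clones, among them the most-read, CL13566.Contig2_All, with 1070, 651 and 277 fragments and then 570, 203 and 146. The summed cluster was 0.56 log2 units below control at 1 h in ‘Reken501’ and 0.68 below in ‘93-114’, so here the member ran against its own cluster in both clones. CL9888.Contig1_All, likewise named after its values were seen, held 1.87% of the fragments of its cluster, whose sum was 0.01 and 0.21 log2 units below control at 1 h.

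Over all 93 sister contigs, 28 were at least 2-fold above control at 1 h in ‘Reken501’, against 4.5% of the 29225 contigs of clusters that have the minimum mean and are not members, and 20 in ‘93-114’, against 10.8%. Both clones passed 2-fold in 8 of the 93, against 0.821%. All 4 differences of the choice were above 0 in 39 of them, against 13.3%, and 1 reached 1 log2 unit in all 4. The median change at 1 h was 0.58 log2 units in ‘Reken501’ and 0.56 in ‘93-114’, against 0.02 and 0.03 over the same background, and relative to totals it was 0.49 and -0.16. Relative to totals all 4 differences were above 0 in 15, and the share of the background on that scale was not counted. At 1 h 10 of the 93 were on opposite sides of control in the clones, each beyond its counting interval, which is near the 9.8% of the same background.

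The contigs past 2-fold were unevenly spread over the clusters. CL1361 gave 23 of the 93 sister contigs and CL116 gave 18, with the other 52 spread over 17 clusters. CL1361 held 15 of the 28 past 2-fold in ‘Reken501’, 8 of the 20 in ‘93-114’ and 5 of the 8 in both. Outside it, 13 of 70 passed in ‘Reken501’, against 4.5% of the same background, and 12 of 70 in ‘93-114’, against 10.8%. Of the 39 with all 4 differences above 0, 23 were among the 52 contigs outside CL1361 and CL116. Relative to library totals, 1 of the 93 passed 2-fold in both clones, where the background was not counted either.

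**Figure D5:**
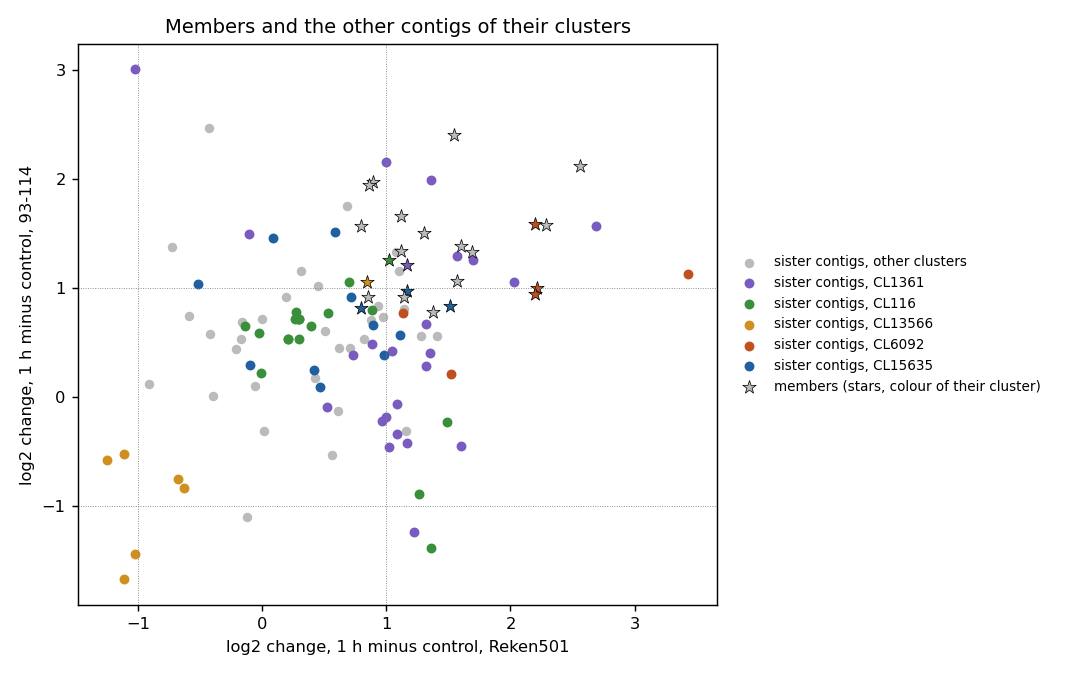
Log2 change from control to 1 h in ‘Reken501’ (x axis) and ‘93-114’ (y axis) for the 24 members that are contigs (stars) and the 93 sister contigs of their clusters (circles), median-centred, with 5 clusters coloured and dotted lines at 2-fold. The CL13566 sister contigs lie lower left while their member lies upper right, and the CL6092 contigs lie to the right of the 2-fold line of ‘Reken501’.

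When all contigs of a cluster were added up, the brief peak of many members became smaller. The choice favours this, since it took the contigs with the highest differences and passed over the others. The members held between 1.87% and 92.8% of the fragments of their cluster, with a median of 21.1%. Of the 20 summed clusters, 15 had all 4 differences above 0, and only CL13138 reached 1 log2 unit in all 4. The median change of the sums at 1 h was 0.76 log2 units in ‘Reken501’ and 0.81 in ‘93-114’, and relative to totals 0.66 and 0.10, with all 4 differences above 0 in 10 of the 20. The same counts were not made over other clusters. The part of the cluster held by the member was highest in CL13138, CL576, CL9595 and CL10574, at 78.5%, 78.6%, 86.6% and 92.8%. There the sums were between 1.02 and 1.67 log2 units above control at 1 h in ‘Reken501’ and between 0.54 and 2.04 in ‘93-114’. Relative to totals they were between 0.92 and 1.57 above control in ‘Reken501’. In ‘93-114’ they were then 1.32, -0.18, 0.495 and -0.06 in the order named, with CL576 and CL10574 below control.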

How the data were processed

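Leaf RNA of 2 clones at 3 times was sequenced as 6 libraries. The authors deposited 4 tables of raw counts of fragments per unigene, without normalization, and FPKM, which the authors computed from the count, the length and the library total. The assembly and counting of these tables are not given in the sources used here. The authors' log2 ratio, p-value and false discovery rate columns were not used. Counts were joined over the tables, absent being 0, after checking that shared control columns are equal and that all 6 columns add up to their totals. Differences are of log2((fragments + 0.5)/total) minus the library median. With 1 library per group no test was run. Counting intervals are exact (Clopper-Pearson) at the 95% level.

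Members and lists were chosen with earlier results of these data known. Named members are the 12 ranked highest, the 3 with the highest mean FPKM, the 2 with the largest difference between clones in control leaves in each direction, those of clusters with several members, and those at the edge of the list. Python 3.11.15, numpy 2.4.6, pandas 2.3.3, scipy 1.17.1, and, for alternative scalings, R 4.3.3 with edgeR 4.0.16 and DESeq2 1.42.0 were used.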

Additional observations from a re-analysis of the deposited data

Results flagged for a closer look

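Of the 93 sister contigs, 10 were on opposite sides of control at 1 h in the clones, each beyond its counting interval, against 9.8% of the 29225 cluster contigs with the minimum mean that are not members. The number is thus near the background, and 7 of the 10 came from CL1361 and CL116. With 1 library per clone and time, the difference between the clones was not tested. In 7 of them the contig was above control in ‘Reken501’ and below in ‘93-114’. In CL116 these were CL116.Contig10_All, at 1.36 and -1.39 log2 units in ‘Reken501’ and ‘93-114’, and CL116.Contig19_All, at 1.26 and -0.90. In CL1361 they were CL1361.Contig13_All at 1.60 and -0.45, CL1361.Contig17_All at 1.09 and -0.34, CL1361.Contig18_All at 1.17 and -0.43, CL1361.Contig19_All at 1.22 and -1.25, and CL1361.Contig9_All at 1.02 and -0.47. All 7 kept opposite signs relative to totals. The reverse was seen in CL2971.Contig7_All at -0.21 and 0.44, CL7983.Contig3_All at -0.73 and 1.37, and CL9888.Contig2_All at -0.59 and 0.75. Of these, CL2971.Contig7_All was below control in both clones relative to totals, at -0.31 and -0.27. The 0.75 of CL9888.Contig2_All was close to the 0.71 by which the ‘93-114’ median lay below control at 1 h.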

How the results depend on the processing

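No paired analysis was possible because every group holds 1 library. Alternatives were other scalings (totals without centring, edgeR TMM factors, DESeq2 size factors, totals without the 100 most-read unigenes), 5 added fragments, other minimum means and summed clusters, and, added after seeing the data, leaving out the 5 members with few fragments in 1 clone. With TMM factors 58 and with DESeq2 size factors 57 of the 60 members stayed in the list, and none of the medians over members left its 95% rank interval. With totals without centring 30 stayed, the median change of ‘93-114’ was 0.62 log2 units at 1 h and -0.64 at 24 h, and 1 sister contig passed 2-fold in both clones. With totals without the 100 most-read unigenes the median change of ‘93-114’ was 0.94 at 1 h and -0.32 at 24 h, and 2 sister contigs passed. A minimum mean of 100 fragments left 18 members in the list, and no minimum left 0, since unigenes with a median mean of 1.33 fragments took their place. With 5 fragments added the median at 1 h in ‘93-114’ was 1.13. Summing contigs gave 1.11 in ‘Reken501’ and 1.08 in ‘93-114’ at 1 h, over 56 units of which 36 stood alone and had nothing to sum. Over the 20 summed clusters alone the medians were 0.76 and 0.81. The numbers of members at least 2-fold apart between clones stayed within 1.5 times under every scaling and added count tried. For the 23 named members, 533 of the single values stayed within their counting intervals, 42 did not, and none of those past 2-fold changed sign. The causes were not tested. Most members have a mean count under 100 fragments over the libraries, and the spread between pools is unknown.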
